A study of Homo sapiens with 4 samples.

Results

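The imprinted miRNA cluster at 14q32 was followed in extracellular vesicles (EVs) of MDA-MB-231, an established cell line from a human triple-negative breast cancer. Its members were chosen by name, as either arm under 45 miRNA hairpin names of the cluster, some of which cover 2 hairpins. Of the 1619 miRNAs listed in the count tables, 67 belonged to it. An arm is the mature miRNA cut from the 5′ (5p) or the 3′ (3p) side of a hairpin. Of the 45 hairpin names, 41 had at least 1 listed arm, and hsa-miR-300, hsa-miR-337, hsa-miR-487a and hsa-miR-496 had no listed arm. The table of replicate 1 listed 51 members and that of replicate 2 listed 45, with 29 in both. A total of 43 members had at least 1 read, 24 were at 0 in every library that listed them, and 5 were above 0 in all 4 libraries.

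Small RNA was sequenced from 2 groups of 2 libraries. The group 231 EV came from wild-type cells switched to EV-free DMEM, and the group 231 -G EV came from wild-type cells switched to glucose-free medium, each for 12 h, with EVs pelleted at 110000 × g for 70 min. The cells of both groups had been kept in serum-containing medium before the switch. The replicate number also named the library preparation: RNA of replicate 1 was pretreated to remove modifications and gave inserts of 14 to 40 nt, and replicate 2 was made with an NEBNext small RNA library kit after RNA preparation for which the labels name a TruSeq kit. A pair is the 231 EV and 231 -G EV library of the same replicate number, and differences between the pairs cannot be told apart from the preparation.

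The cluster lies in the DLK1-DIO3 domain, where the maternal chromosome transcribes long noncoding RNAs (MEG3, an RNA antisense to RTL1, MEG8 and MEG9) that carry the miRNAs, and the paternal chromosome transcribes the protein-coding genes DLK1, RTL1 and DIO3. The miRNAs are processed from these long transcripts, many of them in tandem, and are known for high levels in placenta, brain and stem cells and for low levels in many adult epithelia. In bulk EV RNA, fewer vesicles that carry a miRNA and less of it per vesicle cannot be told apart.

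The mature sequences of the 7 members with at least 20 reads over the 4 libraries are given first, because they had the most reads. The capitals mark the seed, bases 2 to 8, which pairs with target mRNAs.
hsa-miR-127-3p: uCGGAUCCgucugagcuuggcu
hsa-miR-411-5p: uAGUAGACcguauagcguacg
hsa-miR-379-5p: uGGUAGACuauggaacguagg
hsa-miR-494-3p: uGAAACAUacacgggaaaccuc
hsa-miR-369-3p: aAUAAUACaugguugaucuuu
hsa-miR-381-3p: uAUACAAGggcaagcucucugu
hsa-miR-409-3p: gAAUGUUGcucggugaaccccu
The sequences are from RefSeq (GRCh38.p14), which held 66 of the 67 members. Of the 7 members, hsa-miR-127-3p (chr14:100883035-100883056) overlaps an exon of RTL1 on the opposite strand and an intron of AL117190.1. Hsa-miR-379-5p (chr14:101022071-101022091), hsa-miR-411-5p (chr14:101023340-101023360) and hsa-miR-494-3p (chr14:101029681-101029702) lie in introns of MEG8. Hsa-miR-381-3p (chr14:101045968-101045989) lies in an intron of MIR381HG. Hsa-miR-409-3p (chr14:101065346-101065367) and hsa-miR-369-3p (chr14:101065641-101065661) lie in introns of MEG9. All are on the plus strand. The hairpins of the listed members spanned 198 kb, from chr14:100869060-100869148 (MIR493) to chr14:101066724-101066801 (MIR656). Of the 66 members with a position, 15 were on the MEG3/RTL1 side of the cluster and 51 on the MEG8/MEG9 side.

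Hsa-miR-379-5p and hsa-miR-411-5p, from neighbouring hairpins, carry the seeds GGUAGAC and AGUAGAC. A seed of the form GGUNNAC was found in 4 of 66 members (6.06%), hsa-miR-299-5p, hsa-miR-379-5p, hsa-miR-380-5p and hsa-miR-412-5p, and in 3 of the 1357 other listed miRNAs with a RefSeq sequence (0.221%). Of these 4 members, hsa-miR-379-5p and hsa-miR-299-5p had reads and the other two were at 0. Reads of the hsa-miR-376 hairpins can be shared between near copies, which are shown for that reason.
hsa-miR-376a-3p: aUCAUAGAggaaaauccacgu
hsa-miR-376b-3p: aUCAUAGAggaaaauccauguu
hsa-miR-376c-3p: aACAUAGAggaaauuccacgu
Hsa-miR-376a-3p and hsa-miR-376b-3p share the seed UCAUAGA and differ by 1 mismatch, and hsa-miR-376a-3p and hsa-miR-376c-3p differ by 2. Counts of single hsa-miR-376 members are therefore uncertain, as are those of hsa-miR-323a-3p and hsa-miR-323b-3p, which differ by 2 mismatches. Members had a median GC content of 45.45% against 52.17% for the other listed miRNAs. The first base was A in 39.4% of members and in 26.4% of the others. The letters GGAG, a motif described for miRNA export into EVs, were found in 4 of 66 members (6.06%), hsa-miR-432-5p, hsa-miR-539-5p, hsa-miR-665 and hsa-miR-1185-1-3p, against 256 of the 1357 others (18.9%). In hsa-miR-432-5p the motif ends the seed.
hsa-miR-432-5p: uCUUGGAGuaggucauugggugg

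The cluster was a small part of the EV miRNAs in each of the 4 libraries. Library totals were 18397 reads in 231 EV and 15597 reads in 231 -G EV of replicate 1, and 224966 and 170894 reads in replicate 2. In the same order the members summed to 51, 50, 303 and 126 reads. Reads are also given as counts per 1000000 reads of the library (CPM), and 1 read was worth 54.4, 64.1, 4.45 and 5.85 CPM. A count of 0 allows up to 3 reads, or 163, 192, 13.3 and 17.6 CPM, so a member at 0 in replicate 1 may still have been at the level that others reached in replicate 2. Members above 0 numbered 21 of 51, 16 of 51, 32 of 45 and 24 of 45, or 41.2%, 31.4%, 71.1% and 53.3% of those listed. Over all listed miRNAs the shares above 0 were 36.8%, 34.4%, 63.0% and 58.4%.

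Most detected members had few reads. The median over members above 0 was 1 read in 231 EV and 1.5 reads in 231 -G EV of pair 1, and 4 and 2 reads in pair 2, against 2, 2, 7 and 5 reads over all miRNAs above 0. Members above 3 reads numbered 2 and 3 in pair 1 and 16 and 10 in pair 2. Hsa-miR-127-3p led the cluster in every library, with 37.3%, 38.0%, 19.1% and 15.9% of the member reads. Its rank among all miRNAs was 50 and 68 in replicate 1 and 128 and 166 in replicate 2. No other member exceeded 6 reads in replicate 1.

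**Figure D1:**
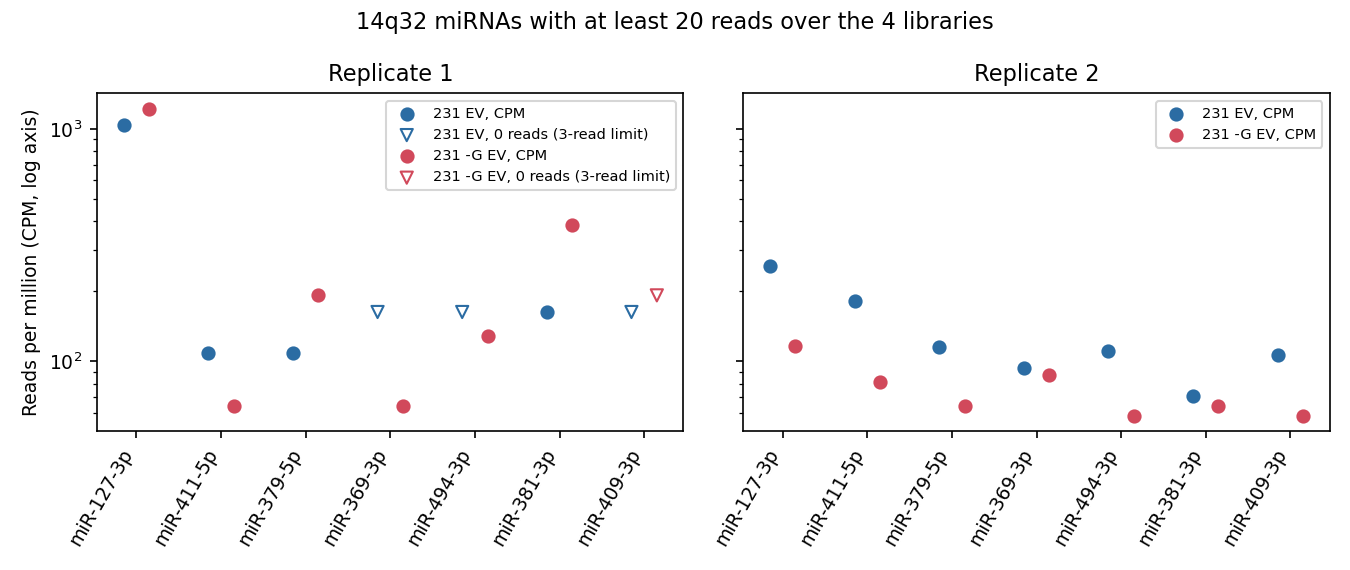
Level of the 7 members with at least 20 reads over the 4 libraries, in CPM on a log axis, with replicate 1 on the left and replicate 2 on the right. Filled points are measured levels (blue, 231 EV; red, 231 -G EV) and open triangles mark the 3-read limit of a library with 0 reads. In replicate 2 all 7 red points lie below the blue ones, and in replicate 1 hsa-miR-127-3p lies above the others in both libraries.

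The summed share of the cluster was lower in 231 -G EV of pair 2 and did not differ detectably in pair 1. In pair 1 the members held 0.277% (95% Wilson interval 0.211 to 0.364) of the reads of 231 EV and 0.321% (0.243 to 0.422) of those of 231 -G EV. The ratio of 231 -G EV over 231 EV was 1.16 (exact interval 0.767 to 1.74), so no difference was detectable at this depth. In pair 2 they held 0.135% (0.120 to 0.151) of 231 EV and 0.0737% (0.0619 to 0.0878) of 231 -G EV. That ratio was 0.547 (0.441 to 0.676), and the intervals of the shares did not overlap. The mean log2 ratio over the pairs was -0.33 (SD 0.76, 2 pairs). The intervals cover counting error only, since the reads carry no molecular identifiers and PCR copies are not independent.

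The ratio of pair 1, which did not differ detectably from 1, changed direction when 1 miRNA outside the cluster was left out of the totals. Hsa-miR-182-5p had 9379 reads in 231 EV of replicate 1, against 426, 572 and 427 reads in 231 -G EV of replicate 1 and in both libraries of replicate 2. With totals that exclude it, the members held 0.566% of 231 EV and 0.330% of 231 -G EV in pair 1, a ratio of 0.583 (0.387 to 0.878). The ratio of pair 2 was still 0.547. The mean log2 ratio then became -0.82 (SD 0.064, 2 pairs). The cluster was thus lower in 231 -G EV in both pairs relative to all miRNAs except hsa-miR-182-5p, and in pair 2 alone relative to all reads. Hsa-miR-451a, with 3577 and 6364 reads in pair 1, stayed in the totals, and leaving it out was not tried. With 2 pairs no p is given for the sum.

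**Figure D2:**
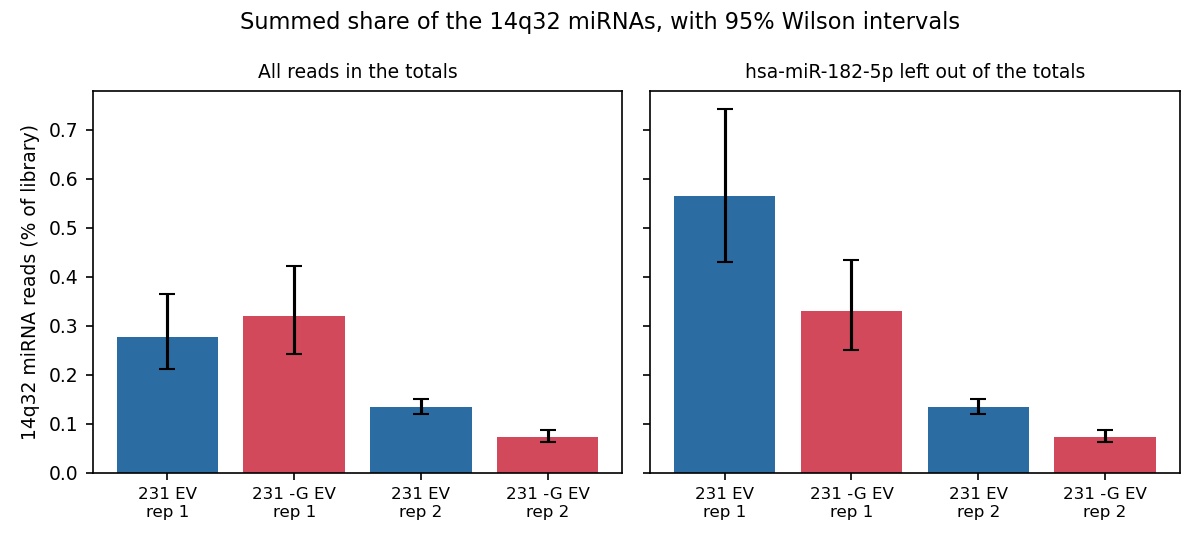
Share of library reads held by the 14q32 members, in percent, for the 4 libraries (blue, 231 EV; red, 231 -G EV), with 95% Wilson intervals. With all reads in the totals the shares of replicate 1 are 0.277% and 0.321%, and with totals that exclude hsa-miR-182-5p they are 0.566% and 0.330%, while those of replicate 2 hardly move.

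In pair 2 the lower level was shared by most members. Of the 19 members with at least 5 reads over that pair, 16 (84.2%) were lower in 231 -G EV, with a median log2 ratio of -0.87 (medians of this kind are of CPM plus 1). Over all 358 miRNAs with at least 5 reads over the pair, 52.8% were lower and the median was -0.087. The 7 members with at least 20 reads over pair 2 were all lower, with a median of -0.86, against 48.9% lower of 221 miRNAs. Hsa-miR-376b-3p, hsa-miR-376c-3p and hsa-miR-382-5p were the 3 of 19 that were higher, each with at most 6 reads in a library. In pair 1 only 4 members reached 5 reads and all 4 were higher in 231 -G EV, against 31.7% lower of 208 miRNAs. With totals that exclude hsa-miR-182-5p, 2 of these 4 were lower, against 56.2% of all. Over all 29 members with reads in pair 1, most of them under 5 reads, 15 (51.7%) were lower, with a median log2 ratio of -0.75. Over 670 miRNAs 45.8% were lower, with a median of 0.23. When the totals exclude hsa-miR-182-5p, 18 of the 29 (62.1%) were lower, near the 58.7% of all. The medians were then -1.735 and -0.742.

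Hsa-miR-127-3p, processed from the RNA antisense to RTL1, had 19 reads in both libraries of replicate 1. In replicate 2 it had 58 reads in 231 EV and 20 in 231 -G EV. Its levels were 1033, 1218, 258 and 117 CPM, so it was nearly level in pair 1 and higher in 231 EV of pair 2. The ratio was 1.18 (0.591 to 2.35) in pair 1, or 0.594 (0.298 to 1.19) when the totals exclude hsa-miR-182-5p, and 0.454 (0.259 to 0.766) in pair 2. Within pair 2 the reads differed by Fisher's exact test (two-sided p = 0.00185, adjusted p = 0.0125 over 618 miRNAs), which compares these 2 libraries and not the media. Across both pairs the log2 fold change of edgeR's quasi-likelihood test was -0.47 (SE 1.02, adjusted p = 0.999), so the difference was not larger than the spread between the pairs. Its 5p arm took 1 of 20, 2 of 21, 1 of 59 and 0 of 20 reads of the hairpin, or 5.0%, 9.52%, 1.69% and 0%, with intervals that overlapped.

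Hsa-miR-411-5p had 2 reads in 231 EV and 1 in 231 -G EV of replicate 1, and 41 and 14 reads in replicate 2. Like hsa-miR-127-3p, it was higher in 231 EV of pair 2, with 182.2 against 81.9 CPM. The ratio of pair 2 was 0.450 (0.226 to 0.842), with an adjusted p of 0.049 by Fisher's exact test within the pair, just under the threshold of 0.05. Its log2 fold change across the pairs was -1.05 (SE 1.48, adjusted p = 0.999 by edgeR).

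Fisher's exact test within pair 2 called 2 of the 34 members above 0 in that pair, hsa-miR-127-3p and hsa-miR-411-5p, both lower in 231 -G EV. It called 115 of 618 miRNAs in that pair (18.6%), so the share of members called was below that of all miRNAs, with few reads behind most members. Within pair 1 it called 0 of 29 members, of which 0 had an unadjusted p under 0.05, against 65 of 670 miRNAs (9.7%).

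The other abundant members of the MEG8/MEG9 side did not pass the test within a pair. Hsa-miR-379-5p, whose hairpin is the next one upstream of that of hsa-miR-411, had 2 and 3 reads in replicate 1 and 26 and 11 reads in replicate 2. The ratio of pair 2 was 0.557 (0.248 to 1.17). All reads of its hairpin came from the 5p arm in replicate 2, 26 of 26 in 231 EV (interval 87.1% to 100%) and 11 of 11 in 231 -G EV (74.1% to 100%).

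Hsa-miR-494-3p had 0 reads in 231 EV and 2 in 231 -G EV of replicate 1, and 25 and 10 reads in replicate 2. Its ratio in pair 2 was 0.527 (0.226 to 1.14). Hsa-miR-409-3p was at 0 in both libraries of replicate 1 and had 24 and 10 reads in replicate 2, a ratio of 0.549 (0.234 to 1.19). Both were lower in 231 -G EV of pair 2, with intervals that include 1.

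Hsa-miR-369-3p had 0 and 1 reads in the libraries of replicate 1 and 21 and 15 in those of replicate 2. The reads of hsa-miR-381-3p were 3 and 6 in pair 1 and 16 and 11 in pair 2. Their ratios in pair 2 were 0.940 (0.451 to 1.91) and 0.905 (0.380 to 2.08), nearer to 1 than those of the other 5 abundant members, although all these intervals overlap. Hsa-miR-381-3p was higher in 231 -G EV of pair 1, with a ratio of 2.36 (0.504 to 14.6), or 1.19 (0.254 to 7.35) when the totals exclude hsa-miR-182-5p. For hsa-miR-409 the 5p arm took 17.2% (7.6 to 34.5) of 29 reads and 16.7% (4.7 to 44.8) of 12 reads in pair 2, and for hsa-miR-369 it took 19.2% (8.51 to 37.9) of 26 and 6.25% (1.11 to 28.3) of 16, so the intervals of the arm shares overlapped.

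**Figure D3:**
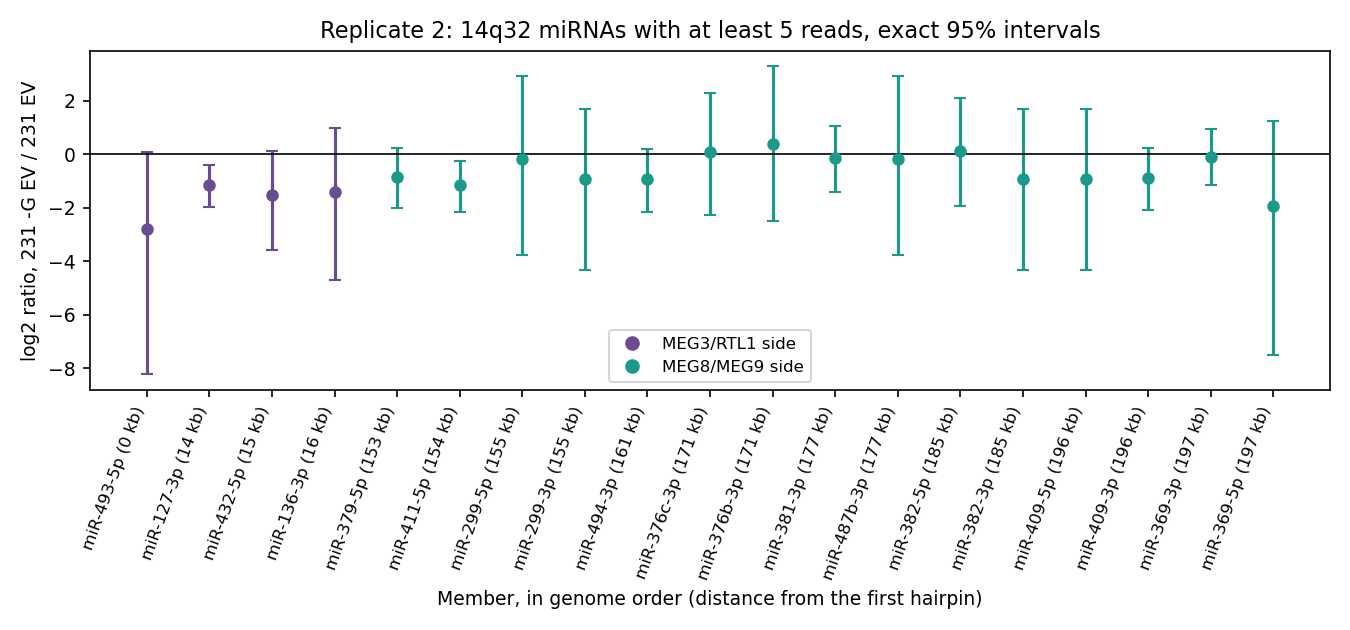
Log2 ratio of 231 -G EV over 231 EV in pair 2 for the 19 members with at least 5 reads over that pair, in genome order, with exact 95% intervals and the distance of each hairpin from that of hsa-miR-493 in kb. Of the 19 points 16 lie below 0, on both sides of the cluster (purple, MEG3/RTL1 side; green, MEG8/MEG9 side), and the intervals of hsa-miR-127-3p and hsa-miR-411-5p alone exclude 0.

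Both sides of the cluster were lower in 231 -G EV of pair 2. Members of the MEG3/RTL1 side summed to 22, 24, 97 and 28 reads, with a ratio of 1.29 in pair 1 and 0.380 (0.240 to 0.584) in pair 2. Those of the MEG8/MEG9 side summed to 28, 26, 206 and 98 reads, with ratios of 1.10 and 0.626 (0.487 to 0.800). With totals that exclude hsa-miR-182-5p, the ratios of pair 1 were 0.649 (0.348 to 1.21) and 0.552 (0.311 to 0.977). The lower level in pair 2 did not rest on hsa-miR-127-3p: without it the ratio was 0.570 (0.449 to 0.718) for the cluster and 0.270 (0.109 to 0.586) for the MEG3/RTL1 side. The ratio of pair 2 was lower on the MEG3/RTL1 side, but the intervals overlap and the difference was not tested. The 5p arms summed to 16, 17, 122 and 42 reads and the 3p arms to 34, 33, 181 and 84, with ratios in pair 2 of 0.453 and 0.611.

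On the MEG3/RTL1 side, hsa-miR-432-5p was at 0 in replicate 1 and had 15 reads in 231 EV and 4 in 231 -G EV of replicate 2, a ratio of 0.351 (0.0848 to 1.10). Hsa-miR-493-5p was at 0 in replicate 1 and had 9 and 1 reads in replicate 2, a ratio of 0.146 (0.00334 to 1.06). Hsa-miR-136-3p had 0, 0, 7 and 2 reads. All 3 were higher in 231 EV of pair 2 and none passed the test. They were named after their values were seen, as the 3 members of this side next in reads to hsa-miR-127-3p. On the other side, hsa-miR-382-5p had 2, 0, 6 and 5 reads and hsa-miR-376c-3p had 2, 0, 5 and 4, named for the same reason. Each member not named here had at most 8 reads in all.

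Across the pairs no member was called. The quasi-likelihood test of edgeR, with the replicate number as a block, called 0 of 384 miRNAs (0%) where a call asked for an adjusted p under 0.05 with a log2 fold change beyond 1 in either direction, and 5 had an unadjusted p under 0.05. Of the 25 members tested, 0 had an unadjusted p under 0.05 and all had an adjusted p of 0.999. DESeq2 and limma also called 0, and 3 of the 25 members and 21 of all 384 miRNAs had an unadjusted p under 0.05 with limma. The fold change was below 0 for 19 of the 25 and above 0 for 6, while 60.2% of all 384 miRNAs were above 0. The median log2 fold change was -0.74 for the members and 0.20 over all 384 miRNAs. Since the labels do not say that replicates came from separate cultures, p-values measure only the spread between these libraries, which may be technical.

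A fold rule was set here with the 1.5-fold threshold that the study uses, applied to CPM plus 1 and asked of both pairs in the same direction. By it, 1 of the 29 members listed in both tables was higher and 7 were lower. Over all 539 miRNAs listed in both tables, 39 (7.24%) were higher and 36 (6.68%) were lower. Hsa-miR-134-5p, a brain-enriched miRNA known for its role at dendritic spines, was the member that was higher. It had 2 and 6 reads in replicate 1, a ratio of 3.54 (0.633 to 35.9), or 1.78 (0.319 to 18.1) when the totals exclude hsa-miR-182-5p, and 0 and 1 reads in replicate 2, so its pass in pair 2 rested on 1 read. Its log2 fold change across the pairs was 1.98 (SE 2.40, adjusted p = 0.999 by edgeR).

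The 7 lower members were hsa-miR-411-5p, hsa-miR-299-3p, hsa-miR-409-5p, hsa-miR-323a-3p, hsa-miR-376a-3p, hsa-miR-410-3p and hsa-miR-433-3p. Hsa-miR-299-3p and hsa-miR-409-5p each had 1 read in 231 EV and 0 in 231 -G EV of replicate 1, and 5 and 2 reads in replicate 2. Hsa-miR-323a-3p had 2, 1, 3 and 1 reads and hsa-miR-376a-3p had 2, 0, 1 and 0. Hsa-miR-410-3p and hsa-miR-433-3p each had 1, 0, 1 and 0 reads. In pair 1 none of the 7 exceeded 3 reads in a library, and in pair 2 this held for 4 of the 7, so their passes differ by few reads. Among the 3 members with at least 5 reads over each pair, 0 passed in either direction, against 12 higher (9.76%) and 2 lower (1.63%) of 123 miRNAs at that depth. Hsa-miR-410-5p, which was listed for replicate 1 alone, had 0 reads in 231 EV and 2 in 231 -G EV.

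Summed markers of other cell types were lower in 231 -G EV of pair 2 as well. A list of 7 fibroblast and smooth muscle miRNAs, led by hsa-miR-143-3p, held 2.47% and 1.51% of the reads in pair 1 and 0.353% and 0.171% in pair 2, with ratios of 0.612 and 0.484, and of 0.308 in pair 1 with totals that exclude hsa-miR-182-5p. In pair 1 the lower sum came from hsa-miR-143-3p alone, at 447 reads for 231 EV and 210 for 231 -G EV. The other members with reads had more in 231 -G EV of that pair, hsa-miR-199a-3p 6 and 17, hsa-miR-199a-5p 1 and 5, and hsa-miR-145-5p 1 and 4. In pair 2 hsa-miR-214-3p, with 3 reads in each library, was the member not lower in CPM among those with reads. In library order 4, 4, 6 and 5 of the 7 were above 0. Of these, hsa-miR-145-3p was at 0 in all 4 libraries, and hsa-miR-143-5p and hsa-miR-214-3p were at 0 in both libraries of replicate 1. A list of 7 blood miRNAs held 20.1% and 42.9% in pair 1 and 0.529% and 0.199% in pair 2. The ratios were 2.14 and 0.376. It was led by hsa-miR-451a in pair 1. In pair 2 hsa-miR-223-3p led, with 502 and 158 reads against 295 and 68 for hsa-miR-451a. With totals that exclude hsa-miR-182-5p the ratio of pair 1 was 1.08 (1.04 to 1.12). Hsa-miR-451a held most of the sum in pair 1, and hsa-miR-223-3p, with 3 and 2 reads, was lower in CPM in that pair. In pair 1, 4 and 6 of the 7 were above 0, and all 6 listed were above 0 in pair 2. The part of these cell types in the member levels was not tested.

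A list of 6 epithelial miRNAs of the miR-200 family and hsa-miR-205-5p held 0.0924%, 0.532%, 0.0858% and 0.0205%, with 5 above 0 in 231 EV of replicate 1, where hsa-miR-205-5p was at 0, and 6 above 0 in the other libraries. Its ratio was 5.76 (3.39 to 10.35) in pair 1, or 2.90 with totals that exclude hsa-miR-182-5p, and 0.239 (0.162 to 0.344) in pair 2. The sum was thus higher in 231 -G EV in the former and lower in the latter. In pair 2 hsa-miR-205-5p held 109 of the 193 reads of the list in 231 EV and 3 of 35 in 231 -G EV. Hsa-miR-141-3p and hsa-miR-429 went the other way in pair 1, with 2 reads against 1 each, and hsa-miR-429 had 2 reads in both libraries of pair 2. A list of 5 miRNAs high in mesenchymal-type breast cancer cells such as MDA-MB-231, led by hsa-miR-21-5p, held 2.14% and 3.10% in pair 1 and 40.6% and 38.0% in pair 2. Its ratio was 1.45 in pair 1, or 0.730 with totals that exclude hsa-miR-182-5p, and 0.936 in pair 2. Both sums held miRNAs that went opposite ways. In pair 1 hsa-miR-221-3p and hsa-miR-222-3p had lower CPM in 231 -G EV and the other 3 had higher. In pair 2 hsa-miR-29a-3p, hsa-miR-221-3p and hsa-miR-222-3p had higher CPM in 231 -G EV, and hsa-miR-21-5p and hsa-miR-100-5p had lower CPM. All 5 were above 0 in every library, but their share in replicate 1 was far below that in replicate 2. The labels call the cells epithelial, and the epithelial list stayed under 1% of reads throughout.

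**Figure D4:**
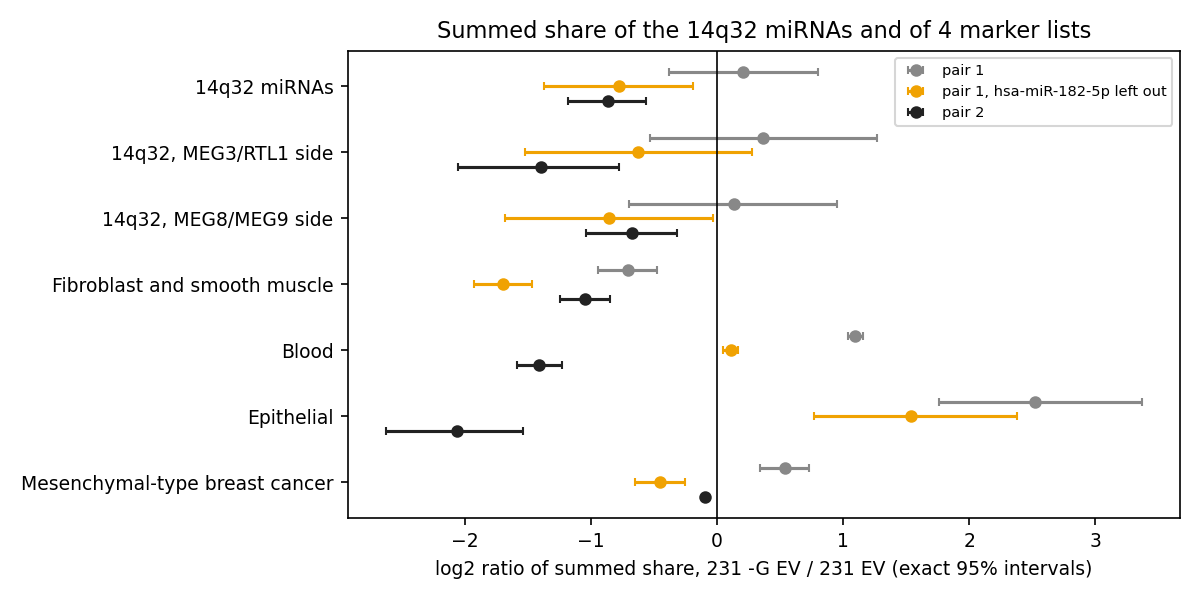
Log2 ratio of the summed share in 231 -G EV over that in 231 EV, with exact 95% intervals, for the 14q32 members, the members of each side of the cluster and 4 marker lists (grey, pair 1; orange, pair 1 with totals that exclude hsa-miR-182-5p; black, pair 2). In pair 2 the cluster (ratio 0.547) lies near the fibroblast and smooth muscle list (0.484) and the sum of the mesenchymal-type list, whose members went opposite ways, lies near 0 (0.936), and in pair 1 the cluster is above 0 with all reads and below 0 without hsa-miR-182-5p.

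Hsa-miR-342 and hsa-miR-345, which lie at 14q32 but outside the imprinted domain, summed to 3, 2, 291 and 210 reads, with a ratio of 0.950 (0.792 to 1.14) in pair 2. Hsa-miR-342-3p was at 1098 CPM in 231 EV and 731 CPM in 231 -G EV, hsa-miR-345-3p at 35.6 and 11.7 CPM, and hsa-miR-345-5p at 160 and 486 CPM in pair 2, so the sum holds miRNAs that went opposite ways. Of the miRNAs of the domain outside the 45 hairpin names, 5 were listed and they had 1 read in all, from hsa-miR-1247-3p in 231 EV of replicate 1.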

How the data were processed

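Small RNA of EVs from MDA-MB-231 was sequenced in 4 libraries. The authors deposited whole-number read counts per miRNA, beside scaled values, headed CPM in the table of replicate 1 and TPM in that of replicate 2. In the deposited files, CPM and TPM were both found to be the count over the library total times 1000000. Per the labels, reads were processed with FastQC, cutadapt, Bowtie and Bowtie2 on hg38. StringTie and edgeR were also named.

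Members and marker lists were chosen with earlier results of these data known. A miRNA absent from a table was treated as unknown there. Counts of the 384 miRNAs present in both tables with reads in 2 or more libraries were fitted in edgeR 4.0.16 (R 4.3.3) by quasi-likelihood, blocked on the replicate number and scaled to the deposited library totals, and p-values were adjusted by Benjamini-Hochberg. DESeq2 1.42.0 and limma 3.58.1, on log2 of CPM plus 1, were alternatives. Reads within a pair were compared by Fisher's exact test (SciPy 1.17.1). Both tests were tested on simulated data. Ratios have exact conditional intervals and shares Wilson intervals, at 95%.

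The labels tie each replicate number to a preparation. Libraries of the same number deviated together from the group means (correlation 0.59 over 384 miRNAs), and blocking lowered the common dispersion from 1.60 to 0.301.

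Members were named when they had at least 20 reads over the 4 libraries, passed the 1.5-fold rule, passed a test within a pair, had an unadjusted edgeR p under 0.05, or were on the lists of the study. Host genes were taken from GENCODE and positions from RefSeq, both on GRCh38.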

Additional observations from a re-analysis of the deposited data

How the results depend on the processing

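The absence of member calls across the pairs held under all 7 alternatives of the test (TMM scaling, totals that exclude hsa-miR-182-5p, other filters, no block, DESeq2 and limma), with adjusted p-values of members from 0.754 to 1.0. Over all miRNAs they called 1 of 383 with totals that exclude hsa-miR-182-5p and 1 of 476 above 0 in any library. The other alternatives called 0 of all miRNAs, so the absence is not particular to the members. Of 89 alternative fold changes of the 14 named members tested, 85 kept their direction. This was largely fixed in advance, since the alternatives reuse the same counts. Members named for passing the fold rule in both pairs were also among the 14. Without the replicate block, the log2 fold change of hsa-miR-127-3p was 0.037 and that of hsa-miR-379-5p was 0.10. The fold change of hsa-miR-494-3p, 0.003, became -0.31 with TMM scaling and -0.28 with totals that exclude hsa-miR-182-5p. The median log2 fold change of all miRNAs moved from 0.20 to -0.14 with TMM scaling, and that of the members from -0.74 to -1.05. Members below 0 numbered 19 of 25, 21 with TMM scaling or without hsa-miR-182-5p, and 15 without the block. Of all miRNAs, 60.2% were above 0, and 43.2% with TMM scaling, 43.6% without hsa-miR-182-5p and 58.9% without the block. All miRNAs thus also moved down with TMM scaling and without hsa-miR-182-5p.

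The 7 members lower in both pairs became 9 with TMM scaling (54 of all 539 miRNAs), 9 with totals that exclude hsa-miR-182-5p (49 of 539), 3 at 2-fold (25 of 539), 1 with CPM plus 10 (18 of 539) and 0 with at least 5 reads over each pair (2 of 123), and the member that was higher became 0 in the last case. With a single pair, 10 to 19 of the 29 members were lower and 2 to 9 higher, by construction, since 1 pair then decides. Pair 2 alone gave 19 members lower and 2 higher, against 28.9% and 21.7% of all 539 miRNAs, and pair 1 alone gave 10 and 9, against 18.7% and 33.8%. The summed ratio of pair 1 turned to 0.583 without hsa-miR-182-5p. The mean log2 ratio was -0.87 in pair 2 alone and 0.21 in pair 1 alone, so its direction rested on the pair. Depth limits replicate 1, where 1 read is worth 54.4 or 64.1 CPM, and no member but hsa-miR-127-3p had more than 6 reads. The 2 calls within pair 2 also held for totals that exclude hsa-miR-182-5p (2 of 34 members, 115 of 617 miRNAs) and over miRNAs with at least 5 reads (2 of 19 members, 121 of 358 miRNAs).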

Other observations

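Members listed for a single replicate were in no test or fold rule across the pairs. Of these, 22 were listed for replicate 1 alone and 16 for replicate 2 alone. Their reads did enter the summed shares and the mean log2 ratio of the cluster. Over the 29 members listed in both tables, the summed ratios were 1.26 in pair 1 and 0.550 in pair 2. Hsa-miR-655-5p, listed for replicate 1 alone, had 4 reads in 231 EV and 0 in 231 -G EV (adjusted p = 0.639 by Fisher's exact test within pair 1). The upper bound of its ratio was 1.79 with all reads and 0.90 with totals that exclude hsa-miR-182-5p, under which 1 of 29 members and 80 of 669 miRNAs had an unadjusted p under 0.05 and 0 members passed the adjusted test. It was chosen after its values were seen.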
